A study of Mus musculus with 12 samples.

Results

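The transcripts described here are those that the deposited kidney tables match to an Ensembl long intergenic noncoding RNA (lincRNA). Rows whose database match carries the lincRNA class were taken, which gave 88 of the 42452 transcripts listed. They match 75 Ensembl transcripts of 72 genes, 70 of which have a name. Of the matches, 47 come from the joint Ensembl and HAVANA models and 41 from Ensembl alone. Transcripts that a library's table does not list count as 0 reads there.

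LincRNAs are made like messenger RNAs, by RNA polymerase II with splicing and a poly(A) tail, but hold no long reading frame. Some act on nearby genes or on chromatin, some carry small nucleolar RNAs in their introns, and many share a start region with a coding gene that runs the other way. Most are present at low levels and in few cell types, and an early lincRNA label can be replaced by a coding one when a short protein is found later.

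The kidneys came from C57BL/6J mice of 2 genotypes, wild type (WT) and Smad3 knockout (KO). Smad3 acts on genes downstream of TGF-β receptors, and how the knockout was made is not given in the sources used here. Each genotype was sampled as normal kidney, after unilateral ureteral obstruction (UUO, the left ureter tied and that kidney taken at day 5), and in anti-GBM glomerulonephritis at day 10. The last is a disease set off by sheep globulin against the glomerular basement membrane, given at 60 µg per g of body weight, after a first immunization in which sheep IgG was injected together with Freund's complete adjuvant. There were 2 libraries in each of the 6 groups. Library numbers follow deposit order and pair nothing across groups, ages are not given, and the labels do not say whether a library holds 1 kidney or a pool, so p-values measure only the spread between these libraries. The Smad3 messenger RNA and other coding markers were not analysed here, so the genotype labels were not checked against them.

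The 12 libraries held between 4595261 and 7342937 reads on listed transcripts. Of these, 4871 to 10179 per library, or 0.0930% to 0.156%, fell on the 88 members. In all 12 libraries the reads covered transcripts less broadly than their number would give if they were evenly spread. This was strongest in 3 libraries (WT UUO 1, KO UUO 1 and KO anti-GBM 1). Their breadth ratio was 0.285 to 0.447, against 0.636 to 0.911 in the other 9, where KO anti-GBM 2 had the 0.636. Those 3 libraries listed 55 to 66 members and the other 9 listed 71 to 82. For the named changes with the smallest p-values that rest on them, the log2 change on the other 9 libraries follows, in most cases with its adjusted p. In that fit WT UUO, KO UUO and KO anti-GBM keep 1 library each. Its adjusted p for these groups takes the spread from the groups that keep 2. These are whole kidneys, so fewer cells of a type and less RNA per cell cannot be told apart.

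The start regions of the 5 members the results turn on are shown first. Each is the window from 250 bases before to 50 bases within the start of the matched Ensembl entry, on NCBIM37 (mm9), read on the strand of the entry. Capitals mark CAGAC or its reverse complement GTCTG, the short letters that Smad proteins are known to contact. The tables give the coordinates of the matched entry and not of the authors' own transcript, so the true start may lie elsewhere. Smim1 (chr4:153400026-153400325, minus strand) and Abhd1 (chr5:31252189-31252488, plus strand) are the 2 members that passed the test. 2610035D17Rik (chr11:113034342-113034641, minus strand) had the smallest p in WT anti-GBM. 2410006H16Rik (chr11:62416129-62416428, plus strand) had the highest level per length, and the entry named Snord123 (chr15:32174368-32174667, minus strand) had the next p after the called pair in WT UUO.
Smim1: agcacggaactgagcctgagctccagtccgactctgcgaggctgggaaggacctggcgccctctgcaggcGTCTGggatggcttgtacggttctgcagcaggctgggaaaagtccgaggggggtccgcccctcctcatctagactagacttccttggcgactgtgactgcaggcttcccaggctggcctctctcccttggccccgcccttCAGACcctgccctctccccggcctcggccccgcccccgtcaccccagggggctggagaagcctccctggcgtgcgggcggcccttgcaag
Abhd1: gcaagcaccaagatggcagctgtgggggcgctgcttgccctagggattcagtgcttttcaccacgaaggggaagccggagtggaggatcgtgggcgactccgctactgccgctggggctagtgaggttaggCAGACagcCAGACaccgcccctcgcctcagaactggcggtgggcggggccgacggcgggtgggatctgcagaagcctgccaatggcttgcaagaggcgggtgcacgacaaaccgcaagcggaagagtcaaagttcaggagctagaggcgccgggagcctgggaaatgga
2610035D17Rik: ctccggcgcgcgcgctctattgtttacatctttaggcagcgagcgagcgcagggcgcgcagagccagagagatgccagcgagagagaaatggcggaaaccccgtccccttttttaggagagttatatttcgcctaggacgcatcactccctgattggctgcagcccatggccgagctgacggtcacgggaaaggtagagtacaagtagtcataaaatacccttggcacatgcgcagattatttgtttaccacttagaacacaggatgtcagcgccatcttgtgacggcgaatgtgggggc
2410006H16Rik: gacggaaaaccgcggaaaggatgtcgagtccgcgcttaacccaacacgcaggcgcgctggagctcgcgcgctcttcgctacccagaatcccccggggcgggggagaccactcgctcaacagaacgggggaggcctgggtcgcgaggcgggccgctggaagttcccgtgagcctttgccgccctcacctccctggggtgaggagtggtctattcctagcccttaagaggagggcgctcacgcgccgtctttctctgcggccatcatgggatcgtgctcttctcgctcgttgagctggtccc
Snord123 entry: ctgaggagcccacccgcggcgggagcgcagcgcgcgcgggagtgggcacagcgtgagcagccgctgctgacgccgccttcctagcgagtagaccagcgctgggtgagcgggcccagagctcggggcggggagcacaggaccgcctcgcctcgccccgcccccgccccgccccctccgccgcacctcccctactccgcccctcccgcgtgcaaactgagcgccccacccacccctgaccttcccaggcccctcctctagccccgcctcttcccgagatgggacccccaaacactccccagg

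Smim1 and Abhd1 each hold 2 copies of CAGAC, counted on both strands, and the other 3 windows hold 0. Over all member loci 33 of 70 windows (47.1%) hold it, against 49.8% of the same windows at 1273 GENCODE M1 lincRNA genes and 48.4% at all 37273 genes. The palindrome GTCTAGAC, which is a full Smad binding element and overlaps no CAGAC, was found in 0 of 70 member windows, 1 lincRNA window and 65 windows (0.174%) of all genes. The windows of the members are rich in CpG. The observed count of CpG was over 0.6 of that expected from base content in 41 of 70 member windows (58.6%), in 45.5% of the lincRNA windows and in 32.2% of all windows. A match is a run of letters only, and no match says that these letters are not in this window.

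Where the matched genes lie bears on what the reads can show. Of the 70 placed loci, 25 (35.7%) start within 1 kb of the start of a coding gene on the other strand and run away from it, against 301 of 1273 (23.6%) GENCODE M1 lincRNA genes. Examples are D330023K18Rik, 25 bases from Gpr107, 2310058D17Rik, 43 bases from Trim11, Gm5101 (now Panct2), 50 bases from Slco4c1, and 9130206I24Rik (now Foxd2os), 359 bases from Foxd2. A further 7 loci start within 1 kb of an opposite coding start but point toward it. At 32 loci the entry lies across a coding gene on the other strand, and at 27 of them exons overlap exons. These 27 loci account for 34 of the 88 members, Smim1 (over Lrrc47) and Abhd1 (over Preb) among them. No strand setting is recorded for the counts, so reads of the member and of its partner cannot be told apart.

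**Figure D1:**
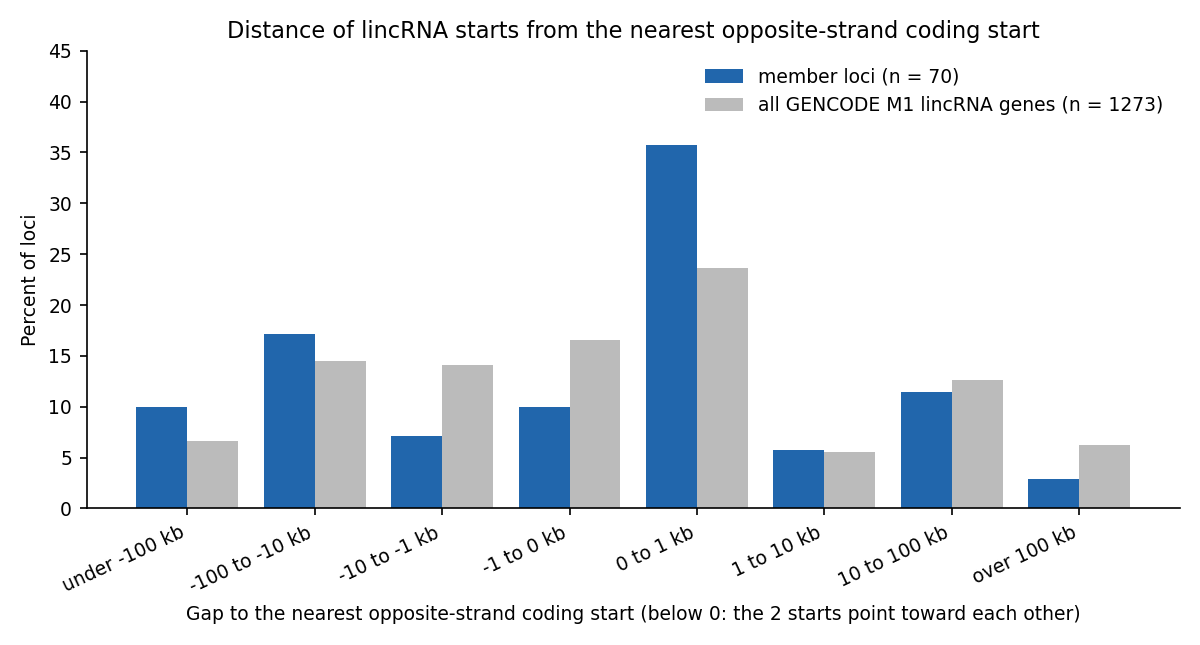
Gap in bases (binned, kb) between each lincRNA start and the nearest coding start on the opposite strand, as percent of loci, for 70 member loci (blue) and 1273 GENCODE M1 lincRNA genes (grey). The bin from 0 to 1 kb, where the 2 starts point away from each other, holds 35.7% of member loci and 23.6% of the lincRNA genes.

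Later annotation changes the class of several members. RefSeq holds the name of 48 of the 70 genes, as a symbol or synonym, and calls 40 of them lncRNA. The names of 4 lead to a protein-coding gene. 1190007F08Rik is now Smim1, a small membrane protein that carries the Vel blood group antigen of red cells. Gm11818 is listed under Triqk, Gm17524 under Dennd5b, and Ttc28 keeps its name. The Gm17524 entry lies across a coding gene on the other strand, and its exons overlap those of Dennd5b. Its name in RefSeq therefore does not show that the entry itself is coding. Abhd1 and 6330549D23Rik are transcribed pseudogenes there, Gm10060 a pseudogene, and the name Snord123 belongs to a small nucleolar RNA. Neither member that passed the test below is classed as lncRNA there.

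The 88 transcripts are 162 to 13935 bases long, with a median of 1079. Of the 84 with annotated exons, 25 are within 0.67 to 1.5 times the length of the annotated RNA, 22 are longer and 37 are shorter. The match can therefore be partial in either direction. Several members can also share 1 entry, as 20 of the 88 do. Gm16568 on chromosome 9 is matched by 7 transcripts of 3852 to 8517 bases, whose mean levels run from 0.0140 to 5.82 CPM, reads scaled to a common library total. The RFAM column gives 11 members (12.5%) a signal recognition particle RNA model, against 4.10% of all transcripts.

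Levels are given as CPM after TMM scaling, which lines up the bulk of transcripts between libraries, and as deposited RPKM where genes are compared per length. Few members were abundant. Mean CPM over the 12 libraries was at least 10 for 16 members, between 1 and 10 for 45 and under 1 for 27, with a median of 2.10. All 12 libraries held reads of 41 members, 9 to 11 libraries held 28, 5 to 8 held 11, and 1 to 4 held 8. The filter on low counts passed 67 members, and the 21 others had 1 to 60 reads summed over all libraries.

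**Figure D2:**
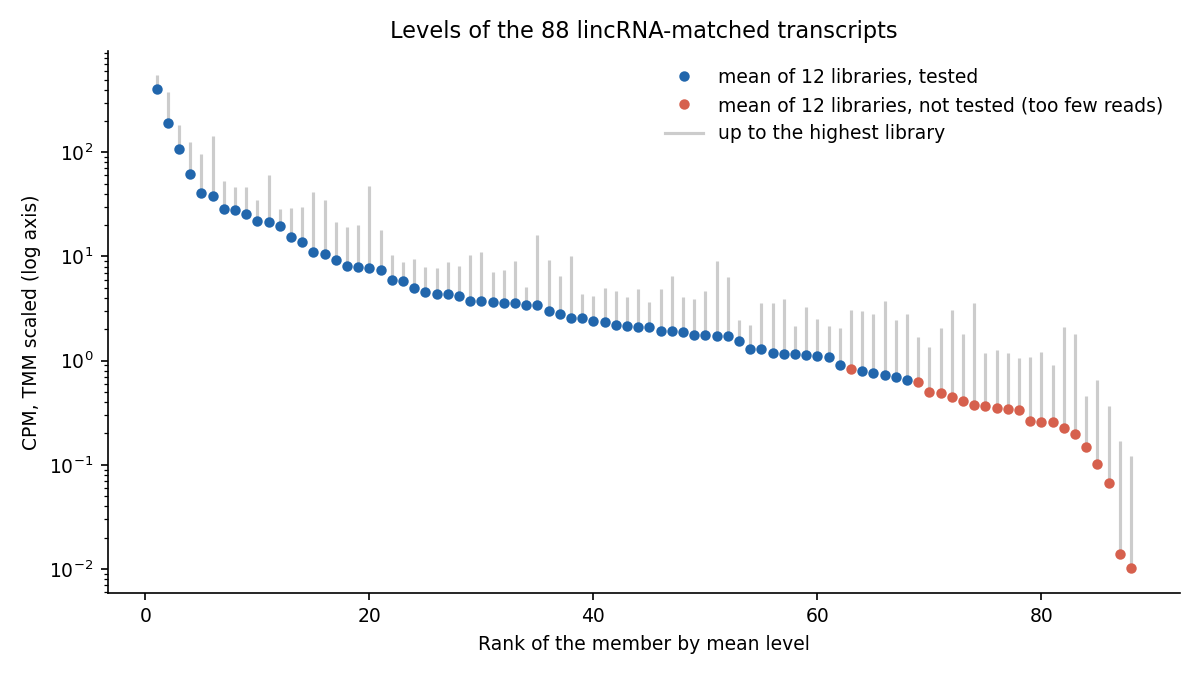
Mean level (CPM, TMM scaled, log axis) of the 88 members against their rank, with a grey line up to the highest of the 12 libraries. The first 4 members lie above 60 CPM, 67 tested members are blue, and the 21 untested ones (red) sit under 1 CPM.

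The 4 most abundant members took 57.1% to 72.0% of the members' reads in each library. C030034L19Rik (chr3:9403068-9437233, plus strand, overlapping Zfp704 on the other strand) led them. Its level was 385 and 420 CPM in WT normal, 326 and 271 in WT UUO, then 390 and 350 in WT anti-GBM, 548 and 504 in KO normal, 423 and 436 in KO UUO, and 465 and 362 in KO anti-GBM. The highest library was 2.03 times the lowest, the coefficient of variation over the 12 libraries was 18.96%, and no comparison passed the test. Abhd1 followed with a mean of 191 CPM. Next came 1700113A16Rik (chr3:87975482-87981707, minus strand, overlapping Mef2d), with 74.8 and 80.7 CPM in WT normal, 125 and 73.3 in WT UUO, then 131 and 97.4 in WT anti-GBM, 95.0 and 74.0 in KO normal, 122 and 76.6 in KO UUO, and 171 and 181 in KO anti-GBM. With TMM both KO anti-GBM libraries were above the 10 others. In deposited RPKM they were at 20.3 and 21.2, below WT UUO 1 (29.2), KO UUO 1 (28.2) and WT anti-GBM 1 (24.3). The log2 difference from KO normal was 1.06 ± 0.45 (SE, edgeR adjusted p = 0.557). The entry named Snord123 came after it, with a mean of 61.4 CPM.

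Per length, 2410006H16Rik stood first, at a mean of 76.3 RPKM and a range of 24.1 to 139. Abhd1 followed at 54.1 RPKM, the Snord123 entry at 39.3, C030034L19Rik at 29.2 and Gm17632 at 28.8. The ranges of these 5 over the libraries overlap, so their order is not fixed at this spread.

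In the obstructed WT kidney Smim1 and Abhd1 fell below their level in normal WT kidney, and no member passed the test as higher. Of 67 members tested with edgeR over all 24816 transcripts, 0 rose and 2 fell at an adjusted p under 0.05. Among all transcripts 0.681% rose and 1.74% fell in this comparison, or 2.42% in all, so 2 of 67 is near the background. DESeq2 called the same 2 members of 61 with an adjusted p (7.26% of all transcripts). The members' median log2 change was -0.79 with TMM, with 24 above and 43 below 0, and 0.28 with library size alone, with 37 above 0. That of all transcripts was 0.49 with TMM.

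Smim1 (ncRNA_aligned_7160, entry at chr4:153394697-153400075, minus strand, 5 exons) was at 57.5 and 31.0 CPM in WT normal and at 6.11 and 8.40 CPM in WT UUO. It was at 12.2 and 15.6 CPM in WT anti-GBM, 35.7 and 49.0 in KO normal, 20.2 and 16.6 in KO UUO, and 62.4 and 143.6 in KO anti-GBM. Both WT UUO libraries were below the 10 others and both KO anti-GBM libraries were above them. The means were 44.3 ± 18.7 (SD, n = 2) in WT normal and 7.25 ± 1.62 (SD, n = 2) in WT UUO. The log2 change was -2.60 ± 0.57 (SE), with an edgeR adjusted p of 0.0127. The call was lost without WT normal 1 (edgeR adjusted p = 0.201), without WT UUO 1 (0.0815) and with library size in place of TMM, where the log2 change was -1.54 (0.114). On the 9 libraries of broader coverage, which keep 1 library of WT UUO, the log2 change was -2.48. In those 9 libraries reads covered 17.7% to 22.7% of the transcript's 3804 bases, so the values describe a short stretch of it.

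Abhd1 (ncRNA_aligned_4486, entry at chr5:31252439-31257464, plus strand, 9 exons) is named for a fold shared by hydrolase enzymes. It was at 351 and 379 CPM in WT normal and at 73.3 and 118 CPM in WT UUO. In WT anti-GBM it was at 161 and 119 CPM, in KO normal at 196 and 172, in KO UUO at 117 and 237, and in KO anti-GBM at 124 and 239. Both WT normal libraries stood above the 10 others. With TMM the values of WT UUO overlapped those of KO UUO but lay below both of KO normal. In deposited RPKM WT UUO 2 (58.3) lay above both KO normal libraries (48.0 and 38.6), as did both of KO UUO (51.1 and 69.5). The log2 change in WT UUO was -1.93 ± 0.47 (SE, edgeR adjusted p = 0.0271). It lost the call without WT normal 1 (edgeR adjusted p = 0.0712), WT normal 2 (0.100) or WT UUO 1 (0.213), and with library size alone, at a log2 change of -0.85 (0.213). On the 9 libraries of broader coverage it was -1.70 (0.00141). Reads covered 96.9% to 99.6% of its 3294 bases there. The same change between KO UUO and KO normal was -0.06 ± 0.46 (0.992), and the difference between genotypes in the response was 1.87 ± 0.65 (0.603). Abhd1 was the 1 member called in that difference on the 9 libraries of broader coverage (2.05, 0.0146), where 2.11% of all transcripts were called.

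**Figure D3:**
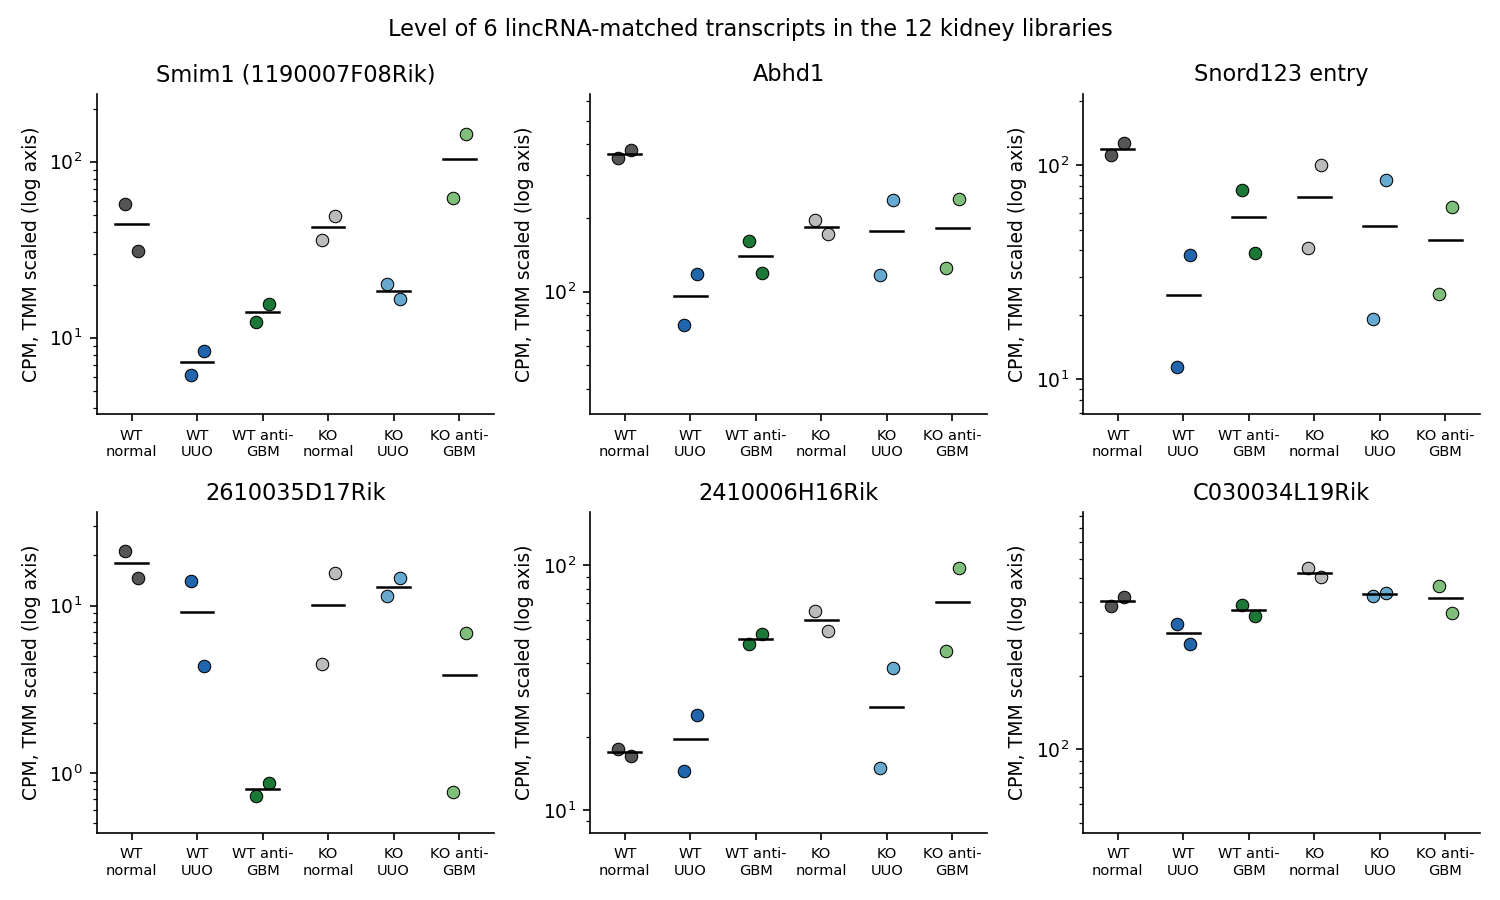
Level (CPM, TMM scaled, log axes that differ between panels) of 6 members in the 6 groups, with 1 point per library and a bar at the mean of 2. Smim1 is lowest in WT UUO and highest in KO anti-GBM, Abhd1 is highest in WT normal, 2610035D17Rik is at 0.73 and 0.87 CPM in WT anti-GBM, and C030034L19Rik varies least.

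The Snord123 entry (ncRNA_aligned_7806, chr15:32170324-32174417, minus strand, starting 151 bases from the axon guidance gene Sema5a) was at 111 and 127 CPM in WT normal and 11.5 and 38.1 in WT UUO. It was at 76.1 and 38.8 CPM in WT anti-GBM, 41.0 and 101 in KO normal, 19.1 and 84.8 in KO UUO, and 25.0 and 64.0 in KO anti-GBM. With TMM WT normal was above every other library, but in deposited RPKM WT anti-GBM 1 (61.2) lay above WT normal 1 (58.5). Within KO normal and KO UUO the 2 libraries of the entry lay far apart. Its log2 change in WT UUO was -2.26 ± 0.76 (SE, edgeR adjusted p = 0.154), and on the 9 libraries of broader coverage -1.72 (0.00753). Panct2 (Gm5101, ncRNA_aligned_3603) was at 26.7 and 17.6 CPM in WT normal and at 6.26 and 5.71 in WT UUO, a log2 change of -1.89 ± 0.70 (SE, edgeR adjusted p = 0.179). In all, 8 members (11.9%) had an unadjusted p under 0.05 in this comparison, each with a lower level in WT UUO, against 15.8% of all transcripts.

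Coverage and scaling move with these values. Of the 67 members' counts, those of WT UUO rest on 1 library of low breadth and 1 of the highest breadth. Without the 3 libraries of low breadth edgeR called 10 of 69 members (14.5%) in WT UUO, 1 higher and 9 lower, and 11% of all transcripts. AC152164.1 was the member that rose. Other cell signals also differed between WT UUO and WT normal: 3 transcripts matched to leukocyte elements summed to 46.6 and 58.9 CPM in WT UUO against 3.42 and 3.47, and 2 matched to mesenchymal elements to 537 and 869 against 321 and 329. Their part in the members' values was not tested.

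The direction of the members as a group depended on the scaling. Summed over the 88 members, the level was 1384 ± 19.8 CPM (SD, n = 2) in WT normal, 841 ± 11.5 in WT UUO, 1034 ± 116 in WT anti-GBM, 1402 ± 2.44 in KO normal, 1175 ± 130 in KO UUO and 1368 ± 160 in KO anti-GBM. As a share of all listed reads, the order of the WT groups was the other way round: 0.104% and 0.103% in WT normal against 0.124% and 0.135% in WT UUO. With library size in place of TMM the median of all transcripts in WT UUO against WT normal moved up by 1.06 on the log2 scale, to 1.55, and that of the members to 0.28. The members' median lay 1.28 below that of all transcripts with TMM, 1.28 below with the size factors of DESeq2 and 1.27 below with library size alone. The transcripts matched to other mouse lncRNA entries, 695 of them tested, had a median of -0.66 in this comparison with TMM, and 140 matched to human entries -0.37.

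**Figure D4:**
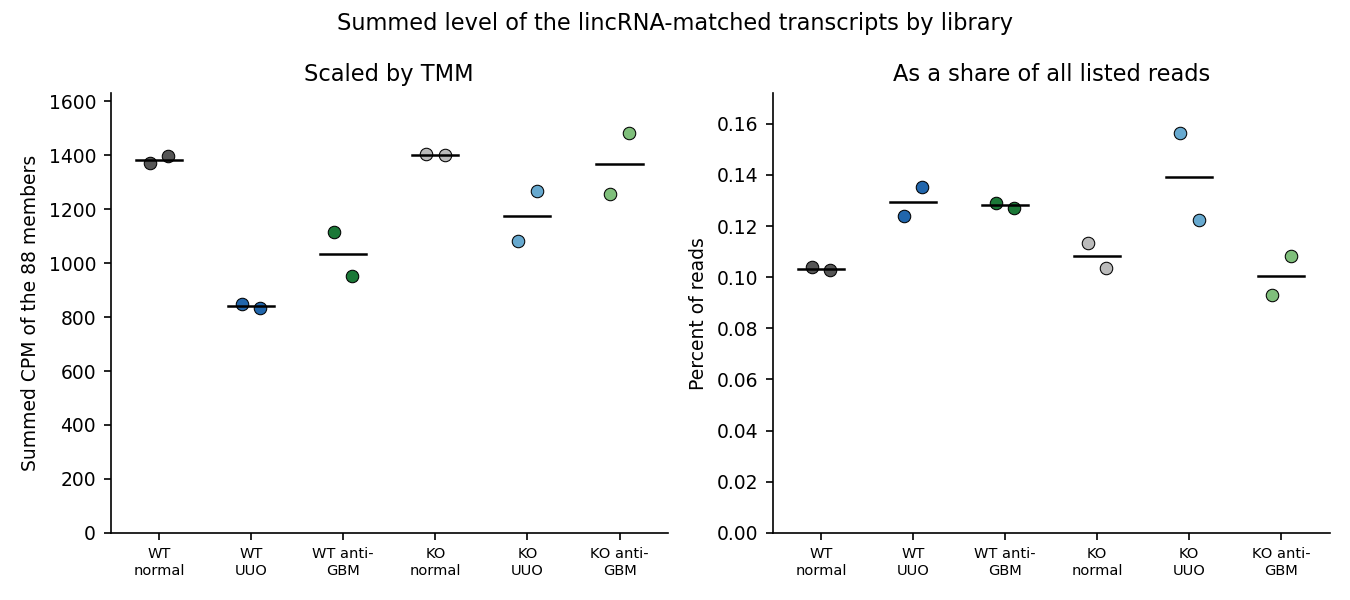
Summed level of the 88 members by library, as TMM-scaled CPM (left) and as percent of all listed reads (right), with a bar at the mean of each group of 2. WT UUO is lowest on the left, at 841 CPM, and above WT normal on the right.

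In the obstructed KO kidney no member passed the test. With edgeR 0 of 67 were called against KO normal (0.0121% of all transcripts), 5 (7.46%, against 5.98% of all transcripts) had an unadjusted p under 0.05, and DESeq2 called 0 of 47 with an adjusted p (1% of all transcripts). The median log2 change of the members was -0.45, with 20 above 0 and 47 below, and that of all transcripts was 0.00. With library size alone the members' median was 0.13. Among the smallest p-values were those of 4930461G14Rik (log2 change -3.89 ± 1.52 SE) and Gm17489, which lies across Fmnl2 on the other strand (2.80 ± 1.26), with edgeR adjusted p of 0.753 and 0.806. On the 9 libraries of broader coverage the first was -2.81 (0.126) and the second 2.56 (0.369). KO normal held 4.87 and 9.31 CPM of the first, and KO UUO held 0 and 1.00 CPM. Gm17489 was at 0.20 and 0.68 CPM in KO normal against 3.62 and 2.68 CPM in KO UUO. In both the groups did not overlap. The 9 libraries of broader coverage gave 0 calls (1.16% of all transcripts). The response of KO minus that of WT called 0 of 67 members with edgeR (0.0604% of all transcripts), 1 member (1.49%, against 5.63% of all transcripts) had an unadjusted p under 0.05, and DESeq2 called 0 of 41 with an adjusted p (1.3%).

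**Figure D5:**
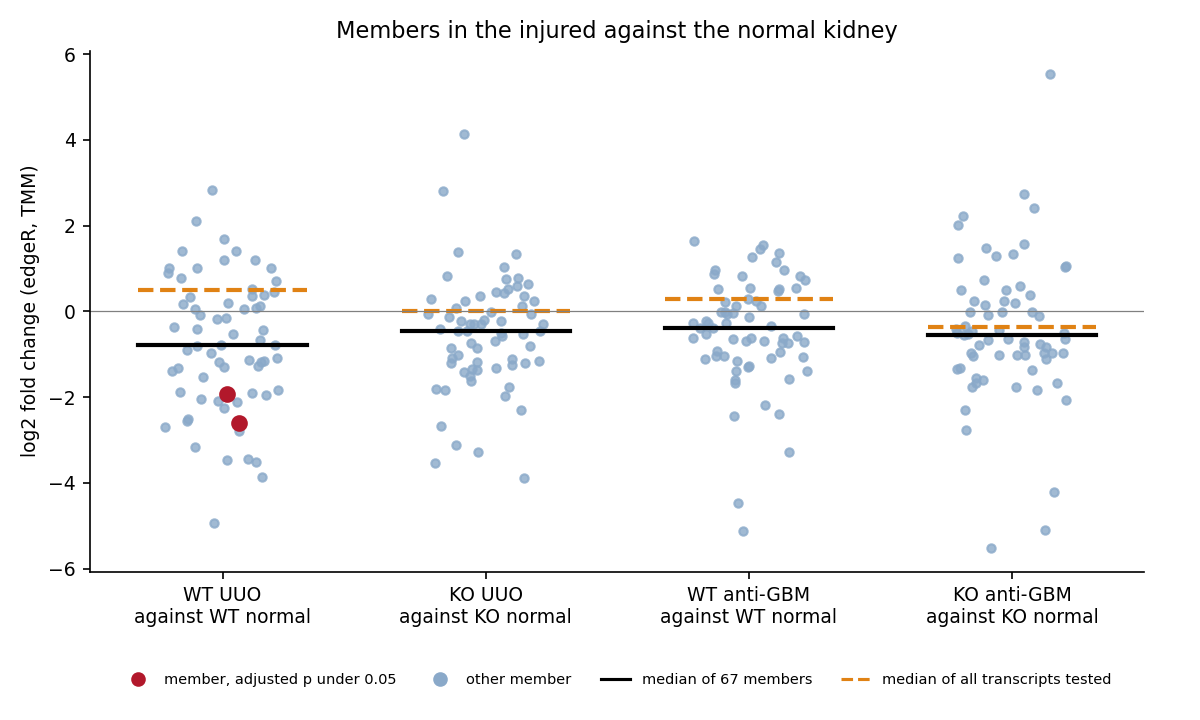
log2 fold changes (edgeR, TMM) of the 67 tested members in each injured group against the normal group of its genotype, with the members' median (black) and that of all 24816 transcripts (orange, dashed). With TMM the medians are -0.79 and 0.49 in WT UUO (0.28 and 1.55 with library size alone), and the 2 red points there are Smim1 and Abhd1.

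In WT anti-GBM kidney 2610035D17Rik was under 1 CPM in both libraries, a difference short of the threshold. This transcript (ncRNA_aligned_3734, entry at chr11:112905209-113034391, minus strand, 3 exons) has its nearest opposite coding start at Sox9, a transcription factor of kidney development and tubule repair, 390853 bases away. WT normal held 21.4 and 14.7 CPM of it and WT anti-GBM 0.73 and 0.87. WT UUO held 14.0 and 4.37 CPM. The other groups held 4.47 and 15.7 in KO normal, 11.4 and 14.6 in KO UUO, and 0.77 and 6.89 in KO anti-GBM. The WT anti-GBM libraries and KO anti-GBM 1, the last a library of low breadth, were under 1 CPM and all others over 4. The log2 change was -4.46 ± 0.99 (SE) with an edgeR adjusted p of 0.119. It passed in 13 of 18 alternatives, DESeq2 (adjusted p = 0.00185) and the 9 libraries of broader coverage (edgeR adjusted p = 1.22e-08) among them. The adjusted p over the alternatives ran from that value to 0.415, the latter without WT anti-GBM 1.

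With edgeR, 0 of 67 members were called in WT anti-GBM against WT normal (0.0201% of all transcripts), 7 (10.4%, against 6.56%) had an unadjusted p under 0.05, and DESeq2 called 1 of 35 (2.14% of all transcripts), 2610035D17Rik. On the 9 libraries of broader coverage 8 of 69 members (11.6%) were called, 2 higher and 6 lower, and 7.17% of all transcripts. The members' median log2 change was -0.39 against 0.30 for all transcripts with TMM, and 0.36 against 1.03 with library size alone. Smim1 and Abhd1 were lower here too, at -1.67 ± 0.55 and -1.39 ± 0.46 (SE, edgeR adjusted p = 0.441 and 0.457). Both WT anti-GBM libraries were below both WT normal ones in each. The WT UUO and WT anti-GBM comparisons share their normal libraries.

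2410006H16Rik (ncRNA_aligned_5111, 510 bases, entry at chr11:62416379-62418309, plus strand, 5 exons) ran the other way. It was at 17.7 and 16.7 CPM in WT normal, 14.5 and 24.5 in WT UUO, while WT anti-GBM held 47.7 and 52.6. In the knockout it was at 65.4 and 53.8 CPM in normal kidney, 14.9 and 38.0 in UUO, and 44.8 and 97.1 in anti-GBM. KO normal lay above WT normal with no overlap, while KO UUO and WT UUO overlapped. The log2 change in WT anti-GBM was 1.54 ± 0.56 (SE, edgeR adjusted p = 0.540). Between KO and WT normal it was 1.79 ± 0.57 (SE, edgeR adjusted p = 1), and the adjusted p was 0.00123 on the 9 libraries of broader coverage, where 1.01% of all transcripts were called.

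In KO anti-GBM against KO normal edgeR called 0 of 67 members (0.0524% of all transcripts), 10 (14.9%, against 8.75%) had an unadjusted p under 0.05, and DESeq2 called 0 of 51 with an adjusted p (0.796%). The median log2 change was -0.55 for the members and -0.37 for all transcripts, and on the 9 libraries of broader coverage the members' median of -0.12 lay above that of all transcripts, -0.28. Gm10524, 215 bases from Zfp236, was at 47.9 and 11.6 CPM in KO anti-GBM and between 0.59 and 7.52 CPM in every other library. In deposited RPKM KO anti-GBM 2 (13.1) lay below WT anti-GBM 2 (15.5) and WT UUO 1 (14.1). The log2 change of Gm10524 was 2.74 ± 0.96 (SE, edgeR adjusted p = 0.540), and 1.40 without the libraries of low breadth. KO anti-GBM 1, with the 47.9 CPM, is one of those libraries. 2310001H17Rik was at 0 and 0.39 CPM against 4.47 and 4.09 in KO normal, with a log2 change of -4.21 ± 1.49 (0.540), and -3.37 (0.138) without the libraries of low breadth. On the 9 libraries of broader coverage Smim1 was the 1 member called (1.33% of all transcripts), as higher.

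Between normal KO and normal WT kidney edgeR called 0 of 67 members (0.0161% of all transcripts), 3 (4.48%, against 2.22%) had an unadjusted p under 0.05, and DESeq2 called 0 of 41 with an adjusted p (0.435%). The median log2 difference was 0.13 for the members and 0.03 for all transcripts. Abhd1 was lower in KO, at -0.99 ± 0.46 (SE, edgeR adjusted p = 1), and 2410006H16Rik was higher as given above. 4833418N02Rik, 72 bases from Ttc7, had no reads in either KO normal library and 0.43 and 2.82 CPM in WT normal, and its adjusted p was 1. No fold is given for it against a group at 0.

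Between the 2 genotypes after obstruction edgeR called 0 of 67 members (0.00806% of all transcripts), 2 (2.99%, against 6.08%) had an unadjusted p under 0.05, and DESeq2 called 0 of 53 with an adjusted p (0.687%). Smim1 was higher in KO UUO than in WT UUO, at 1.34 ± 0.55 (SE, edgeR adjusted p = 0.755), with no overlap of the libraries, and 1.04 (0.588) on the 9 libraries. The 9 libraries of broader coverage gave 0 calls (0.876% of all transcripts). Abhd1 was 0.88 ± 0.46 higher (0.839), or 1.06 (0.384) on the 9 libraries, and its libraries overlapped. One transcript of Snhg12, a host of small nucleolar RNAs, was at 0 and 0.33 CPM in KO UUO against 1.49 and 2.52 CPM in WT UUO (-3.60 ± 1.704, 0.812, and -2.78, 0.621 on the 9 libraries).

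In anti-GBM disease Smim1 had the smallest p of the members between the genotypes. Its mean was 13.9 ± 2.39 CPM (SD, n = 2) in WT and 103 ± 57.4 CPM (SD, n = 2) in KO. The log2 difference was 2.89 ± 0.57 (SE), and the edgeR adjusted p of 0.0519 missed the threshold. It passed in 13 of 18 alternatives, at 0.000735 with DESeq2. On the 9 libraries of broader coverage, which keep 1 library of KO anti-GBM, the log2 difference was 3.38. It did not pass with library size alone (0.0653), in the fit of these 2 groups only (0.159), or without WT anti-GBM 1 (0.245), WT anti-GBM 2 (0.169) or KO anti-GBM 2 (0.0878). The difference in the anti-GBM response between genotypes was 2.95 ± 0.77 (SE, edgeR adjusted p = 0.280), and 3.45 on those 9 libraries. The difference averaged over the 3 states was 1.39 ± 0.32 (0.135), and 1.45 on them. Other cell signals also differed between the genotypes in this state. A transcript matched to a stability element of renin mRNA, a marker of juxtaglomerular cells, was at 5.12 and 20.6 CPM in WT anti-GBM and 562 and 1238 in KO anti-GBM. It was at 144.4 to 220 CPM in WT normal, 83.6 to 126 in WT UUO, 131 to 522 in KO normal and 311 to 380 in KO UUO. The mesenchymal elements summed to 373 and 574 CPM in WT anti-GBM against 1264 and 1370 in KO anti-GBM, and the mir-200b precursor of epithelium was at 45.8 and 52.1 CPM against 14.7 and 16.5. The leukocyte elements summed to 11.4 and 11.5 CPM against 7.09 and 8.76. Their part in the members' values was not tested. No transcript was matched to the red cell precursors sought, mir-144 and mir-451.

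In this comparison edgeR called 0 of 67 members (0.0201% of all transcripts), 12 (17.9%, against 14.8% of all transcripts) had an unadjusted p under 0.05, and DESeq2 called 2 of 60 (2.32%), Smim1 and the transcript matched to Gm17524. On the 9 libraries of broader coverage 8 of 69 (11.6%) were called, 6 higher and 2 lower, against 7.44% of all transcripts. The members' median was 0.13 with TMM and -0.63 with library size alone, while that of all transcripts went from -0.62 to -1.37, so the members lay 0.75 and 0.74 above it. 9330162012Rik, whose exons overlap those of Aldh5a1, an enzyme of GABA breakdown, was at 3.29 and 5.01 CPM in WT anti-GBM and 41.2 and 20.1 in KO anti-GBM, a log2 difference of 2.88 ± 0.86 (SE, edgeR adjusted p = 0.204). Without the libraries of low breadth, which leaves 1 library of KO anti-GBM, the log2 difference was 2.28. The 41.2 CPM is from a library of low breadth. The transcript was also at 14.9 CPM in WT UUO 1 and 18.8 in KO UUO 1, which are of low breadth too. In WT UUO 2 and KO UUO 2 it was at 3.27 and 2.84 CPM. The part of breadth in these values was not tested. The Gm17524 transcript, over Dennd5b, was at 6.10 and 4.79 CPM against 35.0 and 18.3, at 2.29 ± 0.71 (0.221). Without the libraries of low breadth it was 1.76. Neither pair of groups overlapped. In the 9 libraries of broader coverage reads covered 6.12% to 9.74% of the Gm17524 transcript, so its values describe a short stretch. AC152164.1 went the other way in the response, at 41.5 and 46.4 CPM in WT anti-GBM and 18.3 and 14.6 in KO anti-GBM against 15.8 and 18.4 in WT normal and 44.1 and 20.2 in KO normal. The difference between genotypes in its response was -2.33 ± 0.80 (0.413), and -2.48 (0.0106) without the libraries of low breadth.

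Averaged over the 3 states, edgeR called 0 of 67 members between KO and WT (0.0403% of all transcripts), 8 (11.9%, against 9.08%) had an unadjusted p under 0.05, and DESeq2 called 1 of 58 (0.667%), Smim1. The 9 libraries of broader coverage gave 5 calls of 69 (3.65% of all transcripts). 4930474H06Rik, whose exons overlap those of the Wnt pathway gene Dact1, was 0.94 ± 0.32 higher (SE, edgeR adjusted p = 0.442) and 2410006H16Rik 0.91 ± 0.32 (0.447). Without the libraries of low breadth they were 0.83 (0.0712) and 1.15 (0.00160). The first was at 26.3, 21.0, 32.03, 18.1, 11.2 and 13.4 CPM in the 6 WT libraries and at 34.9, 29.5, 42.6, 43.8, 53.6 and 19.9 in the 6 KO libraries, in the order normal, UUO, anti-GBM. Its genotypes overlapped. The anti-GBM response of KO minus that of WT called 0 of 67 (0.0161% of all transcripts), with 7 (10.4%, against 10.00%) at an unadjusted p under 0.05, and DESeq2 called 1 of 55 (0.726%), Smim1. The same 9 libraries gave 5 calls of 69 (5.13% of all transcripts).

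The 2 injuries were also compared with each other. In WT, edgeR called 0 of 67 members between UUO and anti-GBM (0.0967% of all transcripts), 6 (8.96%, against 5.77%) had an unadjusted p under 0.05, and DESeq2 called 1 of 53 (1.18%). That member was 2610035D17Rik, 3.48 ± 0.95 higher in UUO (SE, edgeR adjusted p = 0.252, DESeq2 0.0223). On the 9 libraries of broader coverage 2 of 69 were called (1.67% of all transcripts), 2610035D17Rik, at 2.34 (0.0352), and Gm10524. For C920006O11Rik, WT UUO held 0.30 and 0.84 CPM and WT anti-GBM 3.29 and 4.68 (log2 difference -2.72 ± 1.104, 0.743, and -2.30, 0.176 on the 9 libraries). In KO, edgeR called 0 of 67 (0.0242% of all transcripts), 8 (11.9%, against 13.1%) had an unadjusted p under 0.05, and DESeq2 called 4 of 60 (2.19%): Smim1, Gm10524, Gm16576 and a Gm16908 transcript. Smim1 was at -2.48 ± 0.56 in UUO against anti-GBM (0.106), Gm10524 at -3.89 ± 1.01 (0.139) and Gm16576, 162 bases from Sun2, at 4.11 ± 1.19 (0.185). Smim1 passed in 13 of 18 alternatives. It was at -3.14 on the 9 libraries of broader coverage, which keep 1 library of each of these groups. There 4 of 69 members were called (3.02% of all transcripts). Gm10524 passed in 12 of 18, and on those 9 libraries it was -2.67 (0.0813). Gm16576 was at 11.1 and 4.02 CPM in KO UUO and 0 and 0.79 in KO anti-GBM. The 11.1 and the 0 are from libraries of low breadth, without which its log2 difference was 2.30 (0.257), and over all alternatives it ran from 2.30 to 8.62.

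Of 85 long noncoding RNA names listed as well known, 5 genes were among the members, with 7 transcripts, and 5 transcripts passed the filter. None was called in the 12 comparisons with edgeR (60 tests, 9 at an unadjusted p under 0.05, lowest adjusted p = 0.234). Over all transcripts 2.22% to 15.8% per comparison had an unadjusted p under 0.05. The 60 tests are 5 transcripts in comparisons that share libraries, so they are not independent. Carmn (Gm16908) is a host of the smooth muscle microRNAs mir-143 and mir-145. Its longer transcript was at 28.6 and 25.2 CPM in WT normal, 39.8 and 22.0 in WT UUO, then 11.5 and 14.5 in WT anti-GBM, 43.4 and 22.5 in KO normal, 47.0 and 33.6 in KO UUO, and 6.96 and 14.8 in KO anti-GBM. With TMM all 4 anti-GBM libraries were below the 8 others. In deposited RPKM WT anti-GBM 2 (2.85) lay above WT normal 2 (2.73) and KO normal 2 (2.45). The log2 change was -1.05 ± 0.58 in WT and -1.60 ± 0.59 in KO (SE, edgeR adjusted p = 0.818 and 0.542), the latter -1.14 (0.317) on the 9 libraries. Its second transcript had 61 reads in all.

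Firre (6720401G13Rik), an X-linked RNA that organizes nuclear structure, was between 1.03 and 10.3 CPM in every library, with both KO anti-GBM libraries at 1.03 and 2.76 CPM. Foxd2os (9130206I24Rik) shares its start region with the kidney stroma gene Foxd2. WT normal held 1.71 and 4.12 CPM, WT UUO 0.60 and 2.43, and WT anti-GBM 0.12 and 0.44, from 1 and 4 reads. KO normal held 4.67 and 4.99 CPM, KO UUO 0.43 and 3.85, and KO anti-GBM 2.58 and 2.17. Both WT anti-GBM libraries were below both of WT normal, and KO UUO 1, a library of low breadth, was below WT anti-GBM 2. The log2 change of WT anti-GBM from WT normal was -3.28 ± 1.36 (SE, edgeR adjusted p = 0.668). Snhg5 had 56 reads in all and Snhg12 had 95 and 1 in its 2 transcripts.

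Other abundant members had no adjusted p under 0.05. Gm16898, over Tshz2, was between 6.70 and 35.1 CPM, the Triqk entry Gm11818 between 5.81 and 60.6, and Gm16765, 972 bases from Aldh18a1, between 3.72 and 28.6. In Gm16765 the lowest value was WT UUO 1, a library of low breadth, and the other 11 were at 15.5 CPM or more. By position, the 25 tested members whose exons overlap coding exons had a median log2 change of -1.13 in WT UUO, the 21 others with a start within 1 kb of an opposite coding start -0.91, and the 20 others with a place -0.09. In KO anti-GBM the order was the other way, at -0.02, -0.70 and -0.99. These are descriptions over members that can share a locus.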

How the data were processed

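Counts of reads on putative noncoding transcripts were taken as the authors deposited them, per the file headers as uniquely mapped reads. The deposited RPKM divides each count by transcript length and by the sum of listed reads. The deposited percent gives the share of each transcript covered, and the deposited mean depth is the signal (coverage), which with counts and lengths gives reads of 90 bases. The aligner was Bowtie 0.12.7 and the build mm9, according to the submitters' processing notes. The assembly, strand setting and counting rule are not given in the sources used here. Per the labels' protocols, ribosomal RNA was removed and RNA over 150 bases was kept.

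The 42452 transcripts entered 1 edgeR fit (edgeR 4.0.16, R 4.3.3, TMM, filterByExpr by group, 1 mean per group, robust quasi-likelihood F test, 24816 kept). P-values were adjusted by Benjamini-Hochberg over all of them in each of 12 comparisons, and called under 0.05. A value in parentheses after a log2 change is this adjusted p. With 2 libraries against 2 an exact permutation cannot go below 0.3333, and the model borrows its spread from 12 libraries. The script was tested on simulated data. Alternatives were DESeq2 1.42.0, its size factors in edgeR, library size alone, no filter, the 2 groups alone, the 9 libraries of broader coverage, and each library left out. In the latter fits, a group of 1 library is assumed to vary like the others. The breadth ratio is the share covered over that expected from the reads. Matched entries name NCBIM37, and 83 of 84 with exons have the same ends in GENCODE M1, which gave neighbours and windows. Current names are from RefSeq (GRCm38.p6 table), matched by symbol.

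Named were the called members, the 3 smallest p of each comparison, the 12 highest mean CPM and a list of known lncRNAs, 29 in all, plus others described after their values were seen. The members and lists were chosen with earlier results of these data known. Counting intervals are not given, since reads are not independent molecules. 1 matched transcript and 1 named change are not reported here.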

Additional observations from a re-analysis of the deposited data

How the results depend on the processing

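No paired analysis was possible because the labels number no replicates. Calls of members depended on the fit. Each count below is of members with an adjusted p under 0.05, with the percent of all transcripts called in the same fit in parentheses. For fits that leave out 1 library, the lowest and highest of each are given. In WT UUO against WT normal the 2 calls became 1 (4.12%, AC152164.1) with library size alone, 10 (11%) on the 9 libraries of higher breadth, and 0 to 4 (1.15% to 6%) with 1 library left out. None remained without WT normal 1 or WT UUO 1. In WT anti-GBM against WT normal the 0 calls became 1 with DESeq2 (2.14%), 1 with no filter (0.29%), 8 on the 9 libraries (7.17%), 8 of 54 with the 2 groups alone (14.7%), and 0 to 1 (0.0308% to 0.943%). KO normal against WT normal had 1 on the 9 libraries (1.01%) and 1 with the 2 groups alone (1.1%). KO UUO against KO normal had 0 to 2 (0.114% to 3.73%) with 1 left out, and KO anti-GBM against KO normal 1 on the 9 libraries (1.33%) and 0 to 2 (0.0779% to 1.49%). KO anti-GBM against WT anti-GBM had 1 with DESeq2 size factors (0.121%), 2 with DESeq2 (2.32%), 1 with no filter (0.431%), 8 on the 9 libraries (7.44%) and 0 to 2 (0.12% to 1.74%). The average over states had 1 with DESeq2 (0.667%), 1 with no filter (0.181%), 5 on the 9 libraries (3.65%) and 0 to 3 (0.0613% to 2.26%). The response of KO minus that of WT in UUO had 1 on the 9 libraries (2.11%) and 0 to 1 (0.114% to 0.916%). In anti-GBM it had 1 with DESeq2 (0.726%), 5 on the 9 libraries (5.13%) and 0 to 1 (0.05% to 0.824%). WT UUO against WT anti-GBM had 1 with DESeq2 (1.18%), 2 on the 9 libraries (1.67%) and 0 to 2 (0.164% to 1.34%). KO UUO against KO anti-GBM had 2 with library size alone (0.713%), 4 with DESeq2 (2.19%), 2 with no filter (0.514%), 4 on the 9 libraries (3.02%) and 0 to 6 (0.373% to 2.95%). The cause was not tested. KO UUO against WT UUO had 0 calls in each alternative run.

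Of 638 alternatives to the 36 named changes, 526 kept the side of the threshold, 105 passed where the first fit did not, 7 no longer passed and 0 turned direction. For each named change 12 of the alternatives leave out 1 library, which can be of a group not compared. Leaving out a library also loosened the filter on low counts. Those fits tested 32560 to 35973 transcripts, against 24816 with all 12 libraries, so more than the library changed. The median member had 162.5 reads over all 12 libraries, and 7 had under 20.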

Other observations

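Marker lists were checked among noncoding transcripts only. A transcript matched to the mir-200b precursor, a microRNA of epithelium, was at 29.9 and 36.4 CPM in WT normal, 48.4 and 42.2 in WT UUO, and 45.8 and 52.1 in WT anti-GBM. In the knockout it was at 36.3 and 15.4 CPM in normal kidney, 52.3 and 30.6 in UUO, and 14.7 and 16.5 in anti-GBM, so KO normal and KO anti-GBM overlapped. The 2 transcripts matched to the vimentin and CAESAR elements of mesenchyme summed to 1264 and 1370 CPM in KO anti-GBM against 452 and 475 in KO normal. The 3 transcripts of leukocyte elements summed to 0.609 and 16.3 CPM in the 2 KO normal libraries. No transcript was matched to mir-126 of endothelium.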
